A study of Caenorhabditis elegans with 4 samples.

Results

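The peaks described here are the sites on chromosome IV of Caenorhabditis elegans that were called as enriched after chromatin immunoprecipitation and sequencing (ChIP-seq) of NHR-237, a nuclear hormone receptor carried with a GFP tag, in first-stage (L1) larvae. They are all peaks whose chromosome is IV, taken from 3 lists: 3561 of the 18457 peaks of ChIP replicate 2, 2766 of the 16621 peaks of ChIP replicate 1, and 192 of the 1119 peaks of a combined list. They were divided by peak centre into a right window (13500000 to 17200000), a left window (4500000 to 7000000) and the rest of the chromosome. Both windows were taken as the parts of chromosome IV known for clusters of piRNA genes, and their bounds were not checked against an annotation of the build used. All coordinates are WormBase WS220.

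The series holds 4 samples, 2 ChIP libraries and 2 libraries of input (whole chromatin before the immunoprecipitation), and only the ChIP libraries had peak lists. All came from hermaphrodites of strain OP228 at the stage labelled L1 26dC, where 26dC is left unexplained. The strain has an unc119(ed3) background and carries wgIs228, an nhr-237 transgene with TY1, EGFP and FLAG tags joined to unc119, introduced by bombardment. Growth was at 20 °C with E. coli HB101 as food, and the worms were crosslinked with 2% formaldehyde and precipitated with antibodies to GFP, after 10% of the material had been set aside as input. None of the 4 samples is from an untagged strain, so sites enriched for other reasons than NHR-237 were not separated, and whether the replicates were grown as separate cultures is unknown, so differences between them may be technical.

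Nuclear hormone receptors are transcription factors that bind DNA through zinc fingers and, in many cases, respond to small lipophilic ligands. The family is greatly expanded in C. elegans, and most of its members have no known ligand. piRNAs are small RNAs that the Argonaute protein PRG-1 carries in the germ line, where they silence transposons and other foreign sequence. In C. elegans each piRNA is transcribed from its own short gene, and the genes lie in large numbers in clusters on chromosome IV. In the RefSeq gene table (assembly WBcel235), 14714 of 15363 piRNA genes (95.8%) are on chromosome IV. That table belongs to another build, so its coordinates were not used, and which gene, exon, intron or promoter lies under a peak was not analysed here. The same table places nhr-237 itself on chromosome V and unc-119 on chromosome III.

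The windows differed from each other and from the rest of the chromosome, and the lists did not rank them alike. In the right window replicate 2 listed 945 peaks, or 255 per Mb (95% exact Poisson interval 239 to 272), and replicate 1 listed 573, or 155 per Mb (142 to 168). The combined list had 25 peaks there, or 6.76 per Mb (4.37 to 9.97). The right window was thus the densest of these regions in replicate 2 and the sparsest in the combined list. Relative to the other 5 chromosomes its density was 1.42 times as high in replicate 2 (exact interval 1.33 to 1.52), 0.925 times in replicate 1 (0.849 to 1.01) and 0.603 times in the combined list (0.388 to 0.896). These intervals cover the counting of peaks only, and read depth is unknown because the lists do not give it.

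The left window had more peaks per Mb than the other chromosomes in all 3 lists, beyond the counting interval in replicate 2 alone. Among combined peaks with the highest score the direction turned, with a ratio of 0.675. The combined ratio was also 0.982 with the window edges moved in by 0.25 Mb, and 1.25 with them moved out. The left window held 569 peaks of replicate 2, or 228 per Mb (interval 209 to 247). It held 440 of replicate 1, or 176 per Mb (160 to 193). Its 33 combined peaks came to 13.2 per Mb (interval 9.09 to 18.5). The ratios to the other chromosomes were 1.26 in replicate 2 (interval 1.16 to 1.37), 1.05 in replicate 1 (0.954 to 1.16) and 1.18 in the combined list (0.806 to 1.67). The rest of chromosome IV was close to the other chromosomes, at 181 per Mb in replicate 2 (interval 174 to 189), 155 in replicate 1 (148 to 163) and 11.9 in the combined list (9.94 to 14.1). In replicate 1 its ratio to them was 0.927, with an interval (0.882 to 0.974) below 1. The other chromosomes had 180 per Mb in replicate 2, 167 in replicate 1 and 11.2 in the combined list. Within the rest, the left end of the chromosome, up to the left window, had 156 peaks per Mb in replicate 2 and 130 in replicate 1, and the middle between the windows had 195 and 172 in the same order. The combined list had 11.8 per Mb in both of these stretches.

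**Figure D1:**
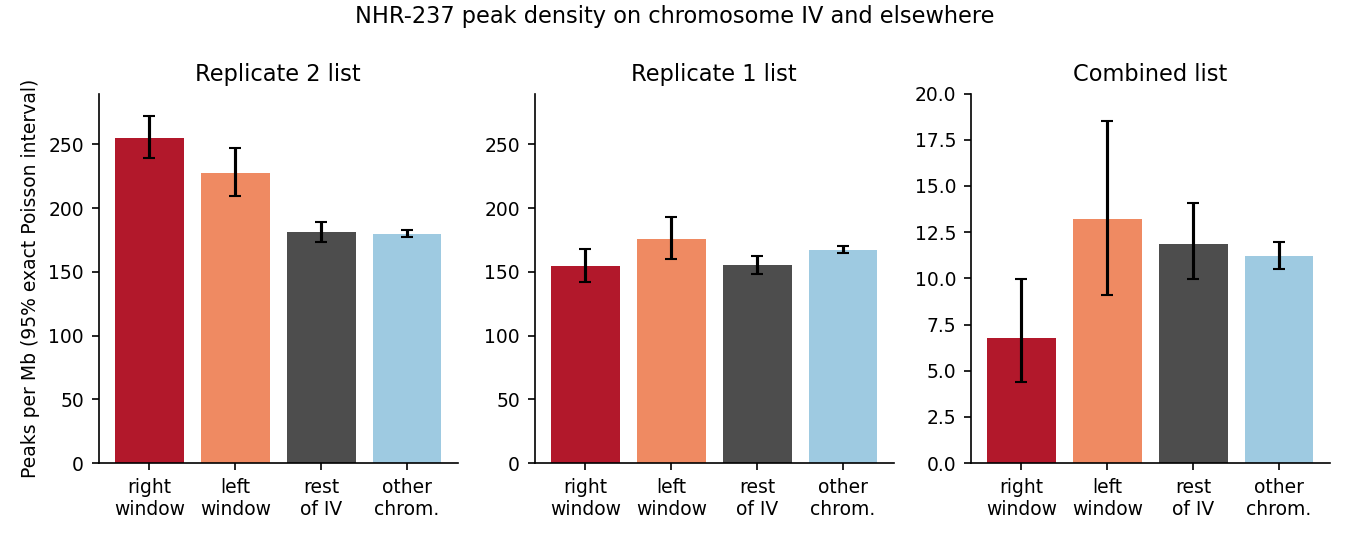
Peaks per Mb in the replicate 2, replicate 1 and combined lists (one panel each, with its own vertical scale for the combined list), for the right and left windows and the rest of chromosome IV and for the other 5 chromosomes; error bars are 95% exact Poisson intervals. The right window stood highest in replicate 2, at 255 per Mb, and lowest in the combined list, at 6.76 per Mb.

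The first-ranked combined peak on chromosome IV lay in the left window, from 4749937 to 4750188. It was number 6 of the whole combined list, number 4 of replicate 2 and number 7 of replicate 1, where number 1 is the first-ranked peak of a list. The numbers are the authors' own, and scores fell as they rose, less closely in the combined list (Spearman rank correlation across peaks of -0.94) than in the others. The next in the left window were 6790378 to 6790827 (combined number 49, number 35 in replicate 2 and 65 in replicate 1) and 5655952 to 5656401 (combined number 109, number 228 and 87). Peaks at 4660308 to 4660757 (number 173) and 6323628 to 6324077 (number 199) followed. The site at 4749937 was one of a pair of combined peaks that spanned 4748341 to 4750188, and the peak at 5655952 was one of a pair up to 5657389.

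In the right window the first-ranked combined peak lay from 14464165 to 14464286. It was number 30 of the combined list, number 41 of replicate 2 and number 22 of replicate 1, and spanned 122 bp, against the usual 450 bp. The peak at 14767636 to 14768085 (combined number 63) was 61st in the replicate 2 list and 97th in that of replicate 1. Next came 15646533 to 15646982 (combined number 148), at 188th and 158th place in the same order. A narrow peak at 14959583 to 14959707 (combined number 187) was 93rd in replicate 2 but 434th in replicate 1. A peak at 15472324 to 15472773 (combined number 247) was 334th in replicate 2 and 248th in replicate 1. These sites come from a list made from both libraries, so their ranks in each are not independent of that choice.

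In the rest of the chromosome the first-ranked peaks were spread from end to end. They lay at 654850 to 655018 (combined number 20, number 17 in replicate 2 and 23 in replicate 1) and at 17249770 to 17249946, beyond the right window (number 23, and 24 in both replicates). The others were 13240565 to 13240748 (number 35), 1659192 to 1659345 (number 51) and 3294686 to 3294797 (number 65). All 5 were narrower than the usual width, with the last at 112 bp the narrowest combined peak of chromosome IV. The chromosome held 10 of the 49 narrow combined peaks, and none of its narrow peaks had a number above 187.

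The median combined number was 548 in the right window, 635 in the left window and 588.5 in the rest of IV, against 551 on the other chromosomes, where a lower number means a higher rank. The highest score, which many peaks of the list share, was held by 11 of 25 right-window peaks, 9 of 33 left-window peaks (27.3%, Wilson interval 15.1 to 44.2) and 58 of 134 in the rest, against 441 of 927 elsewhere (47.6%, interval 44.4 to 50.8). Left-window peaks were mostly of middle rank, with 21 of the 33 after the first 500 and within the first 1000, against 401 of 927 on the other chromosomes. Of the 100 first-ranked combined peaks, 13 were on chromosome IV, and of these 2 were in each window. In the replicate lists the median peak of every region stood close to the middle of its list. In the right window it was at 50.8% of the replicate 2 list and 52.8% of the replicate 1 list, and in the left window at 46.5% and 48.1%. Right-window peaks of replicate 2 were thus spread over the whole ranking. Of these, 19 (2.01%) reached the lowest score of the combined list, 1.36, against 4.52% on the other chromosomes. In replicate 1, 30 right-window peaks (5.24%) did so, against 8.31% on the other chromosomes.

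In windows of 0.5 Mb, the highest replicate 2 count of the genome fell in the right window and the next highest in the left. From 14.5 to 15 Mb replicate 2 listed 179 peaks and replicate 1 listed 93, with 8 combined peaks. From 5.5 to 6 Mb replicate 2 listed 152 and replicate 1 listed 120, with 10 combined peaks. An exact binomial test against an even spread over all 197 full windows of the genome, with Benjamini-Hochberg adjustment over them, called 5 of the 7 right-window windows as higher in replicate 2 and 1 of the 5 left-window windows. Of all windows tested in that list, 9.64% were called higher and 12.7% lower. After peaks within 2 kb were merged, 0 windows of IV were called higher or lower in either replicate list by the same exact test. In the rest of IV 1 of 22 was called higher (8.5 to 9 Mb, 122 peaks) and 1 lower (the last 0.5 Mb before the right window, 68 peaks).

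Replicate 1 gave another picture of the right window. By the same test none of its 7 windows was called higher or lower in replicate 1 (1 had an unadjusted exact p below 0.05), where 18.3% of all windows were called higher and 20.8% lower. Its counts there ran from 64 to 93 with a median of 78, while those of replicate 2 ran from 114 to 179 with a median of 124, so the ranges did not overlap. The left-window window from 5.5 to 6 Mb was called higher in replicate 1 too, and the windows from 1.0 to 1.5, 2.0 to 2.5 and 2.5 to 3 Mb were called lower. The combined list gave no called window by the same exact binomial test, on IV or elsewhere (0% of 197 in either direction). At an unadjusted p below 0.05 there were 18 of 197, none of them among the 34 windows of IV. The fewest combined peaks in a window of IV were 1 each in the first 0.5 Mb of the right window and from 16.5 to 17 Mb, also in the right window. The most were 10, reached in 4 windows that included 5.5 to 6 and 6.5 to 7 Mb. The exact tests treat peaks as independent, whereas peaks lie in runs, so their p-values are too small.

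The ratio of replicate 2 to replicate 1 peaks was raised along the whole right window. It was 1.65 there, 1.29 in the left window and 1.17 in the rest of IV, against 1.08 on the other chromosomes. Relative to the other chromosomes the ratio was 1.53 in the right window (95% interval 1.38 to 1.71), 1.20 in the left window (1.06 to 1.37) and 1.09 in the rest of IV (1.01 to 1.16). With peaks within 2 kb merged it was 1.18 in the right window (1.02 to 1.35), and the intervals of the left window (1.0, 0.848 to 1.19) and of the rest of IV (1.05, 0.968 to 1.15) then reached below 1. That the right part of IV held more replicate 2 peaks was known from earlier results on these lists, so these ratios are a description, and the window test of the same counts is no independent support for them. Every one of the 7 windows of 0.5 Mb in the right window was above the ratio of the whole genome, 1.11, with a range of 1.44 to 1.92. The same held for all 5 of the left window (1.19 to 1.43), for 12 of 22 in the rest of IV and for 71 of 163 elsewhere. An exact binomial test of the replicate 2 share in each window, adjusted over all 197, called the window from 14.5 to 15 Mb (adjusted p = 0.0022). Without merging, 1.02% of all windows were called higher and 0.508% lower. When peaks within 2 kb were merged every call was lost, with 0 windows called on IV and 0 of 163 on the other chromosomes. The windows from 16.0 to 16.5 and from 16.5 to 17 Mb did not pass, each with an adjusted p of 0.068 by the same exact test. These are 2 libraries of the same group, so the test compares libraries and not conditions.

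**Figure D2:**
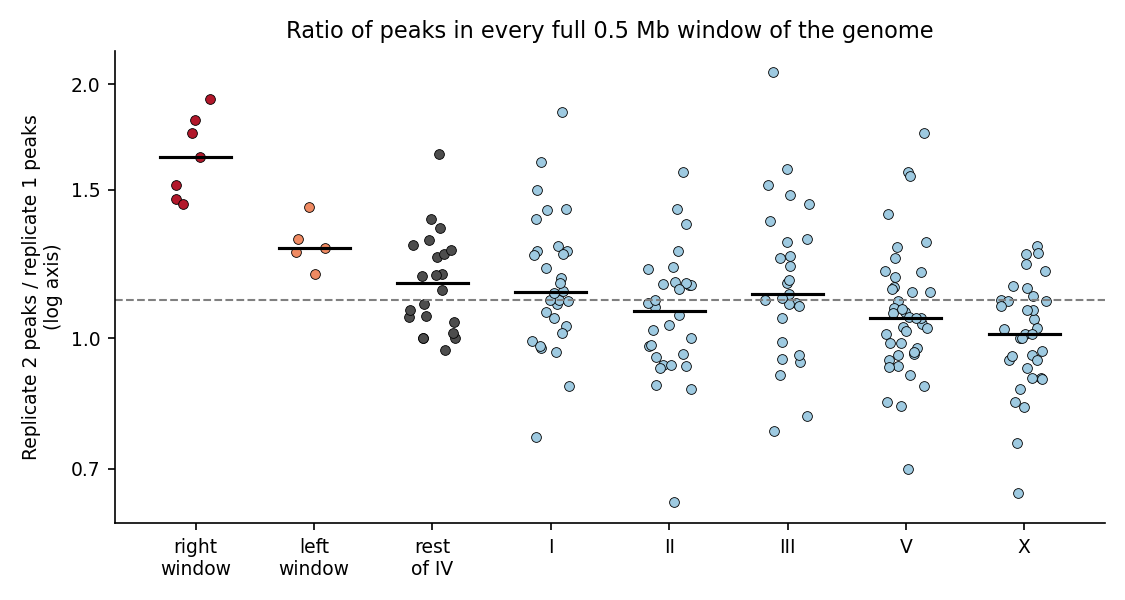
Ratio of replicate 2 to replicate 1 peaks (log axis) in each full 0.5 Mb window, grouped into the right window, the left window and the rest of IV and into the other chromosomes; each point is a window, black bars are medians and the dashed line is the ratio over the whole genome (1.11). All 7 right-window points (1.44 to 1.92) and all 5 left-window points (1.19 to 1.43) lie above the dashed line.

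The excess was not detectable at the top of the lists. Over the first 1000 peaks of each list the ratio relative to the other chromosomes was 1.07 in the right window (interval 0.598 to 1.91). Among the first 500 peaks of each list, replicate 2 had 7 in the right window and replicate 1 had 9. Replicate 2 had 17 and replicate 1 had 14 among peaks 501 to 1000. Among peaks 1001 to 2000 the right window held 49 peaks of replicate 2 and 24 of replicate 1, a ratio of 2.17 relative to the other chromosomes (interval 1.32 to 3.57). The relative ratio was 1.85 for peaks 2001 to 5000 (interval 1.43 to 2.39), 1.52 for peaks 5001 to 10000 (1.26 to 1.85) and 1.39 for peaks 10001 to 16621 (1.17 to 1.64). With both lists held to their first 16621 peaks, the length of the replicate 1 list, the relative ratio over all of them was again 1.53. In the left window the relative ratio was 1.02 for the first 500 peaks, where each list had 11, and 1.51 for peaks 1001 to 2000, with an interval that reached below 1 (0.944 to 2.42). In the lowest class it was 1.25 (interval 1.02 to 1.54).

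**Figure D3:**
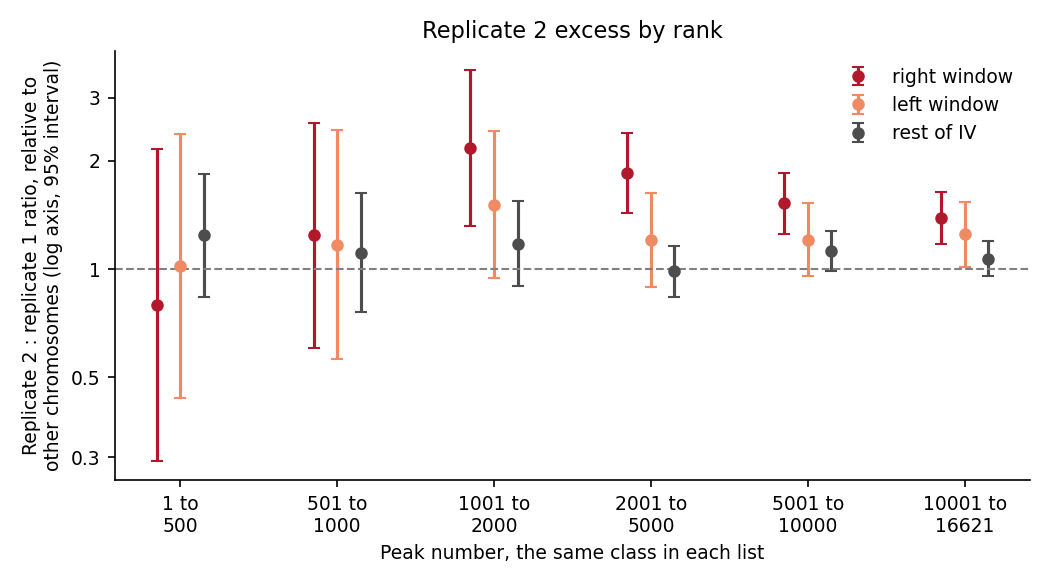
Ratio of replicate 2 to replicate 1 peaks in the same class of peak numbers, relative to the other chromosomes (log axis), for the right window, the left window and the rest of IV; bars are 95% intervals and the dashed line marks equality. The right-window value was 0.794 for peaks 1 to 500 and 2.17 for peaks 1001 to 2000, and stayed above 1 in every lower class.

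By the way shared peaks are counted, the difference had to fall in peaks called in a single library. Peaks with no overlap in the other library numbered 652 in replicate 2 and 299 in replicate 1 in the right window, or 176 and 80.8 per Mb. On the other chromosomes these densities were 114 and 103 per Mb. Peaks found in both libraries numbered 293 in replicate 2 and 274 in replicate 1 in the right window, or 79.2 and 74.1 per Mb, against 66.2 and 64.1 per Mb on the other chromosomes. Shared peaks mark the same sites in both lists, so their ratio is near 1 by construction. In the left window, 357 replicate 2 peaks and 242 replicate 1 peaks stood alone (143 and 96.8 per Mb), and 212 and 198 were shared. The unshared replicate 2 peaks of the right window had a median number of 10048.5, and 28 of the 652 were among the first 2000 of that list.

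Overlap between the replicates followed these counts, and therefore differed by direction. Of right-window peaks of replicate 2, 31.0% (293 of 945, Wilson interval 28.1 to 34.0) overlapped a replicate 1 peak by at least 1 bp. Of right-window peaks of replicate 1, 47.8% (274 of 573, interval 43.8 to 51.9) overlapped a replicate 2 peak. The shares on the other chromosomes were 36.8% for replicate 2 (interval 36.0 to 37.6) and 38.3% for replicate 1 (37.5 to 39.1). Replicate 2 peaks covered 11.0% of the right window and 7.86% of the other chromosomes, and replicate 1 peaks covered 6.34% and 6.82%. What part coverage has in the shares was not tested. With both lists cut, the replicate 1 share of the right window was lower than that of the rest of IV, with no interval calculated. It was 37.1% against 40.7% for the first 5000 peaks of each list. For peaks with at least the lowest combined score, only 30 in the right window, it was 43.3% against 52.7%. The left-window shares were 43.9% and 44.4% in the same order. Against the full replicate 2 list, 26 of the 30 right-window peaks with at least that score were shared, and 140 of 148 in the rest of IV. In rank classes against that list, the right-window share was lower for peaks 501 to 1000 (85.7%, interval 60.1 to 96.0, against 96.6%, 88.5 to 99.1). It was also lower for peaks 1001 to 2000 (70.8%, 50.8 to 85.1, against 76.8%, 68.2 to 83.6). For peaks 2001 to 5000 it was higher (55.2%, 45.3 to 64.8, against 42.3%, 37.1 to 47.7). The intervals overlapped in each of these classes. Over the full lists, the left-window shares were 37.3% for replicate 2 (interval 33.4 to 41.3) and 45.0% for replicate 1 (40.4 to 49.7). In the rest of IV they were 34.5% (32.5 to 36.6) and 38.3% (36.1 to 40.6).

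All peaks among the first 500 of either list were shared in both windows. These were 7 of replicate 2 and 9 of replicate 1 in the right window, and 11 each in the left. Of the peaks among the first 500 that lay on the other chromosomes, 98.6% of replicate 2 and 97.7% of replicate 1 were shared. Among replicate 2 peaks 1001 to 2000, 24 of 49 in the right window (49.0%, interval 35.6 to 62.5) were found in replicate 1, against 33 of 44 in the left window (75%, 60.6 to 85.4) and 63.3% on the other chromosomes (59.9 to 66.6). The right-window interval for this class lay partly below that of the other chromosomes and overlapped it. Replicate 1 peaks of the right window were found in replicate 2 at 70.8% for peaks 1001 to 2000, against 68.2% on the other chromosomes, and at 55.2% for peaks 2001 to 5000, against 43.5%. Of replicate 1 peaks from 10001 on, 44.2% in the right window (interval 38.1 to 50.4) and 35.5% in the left window (28.7 to 43.1) overlapped replicate 2, against 26.7% elsewhere (25.6 to 27.9). Of replicate 2 peaks from 10001 on, 24.2% in the right window overlapped replicate 1, against 26.3% elsewhere.

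**Figure D4:**
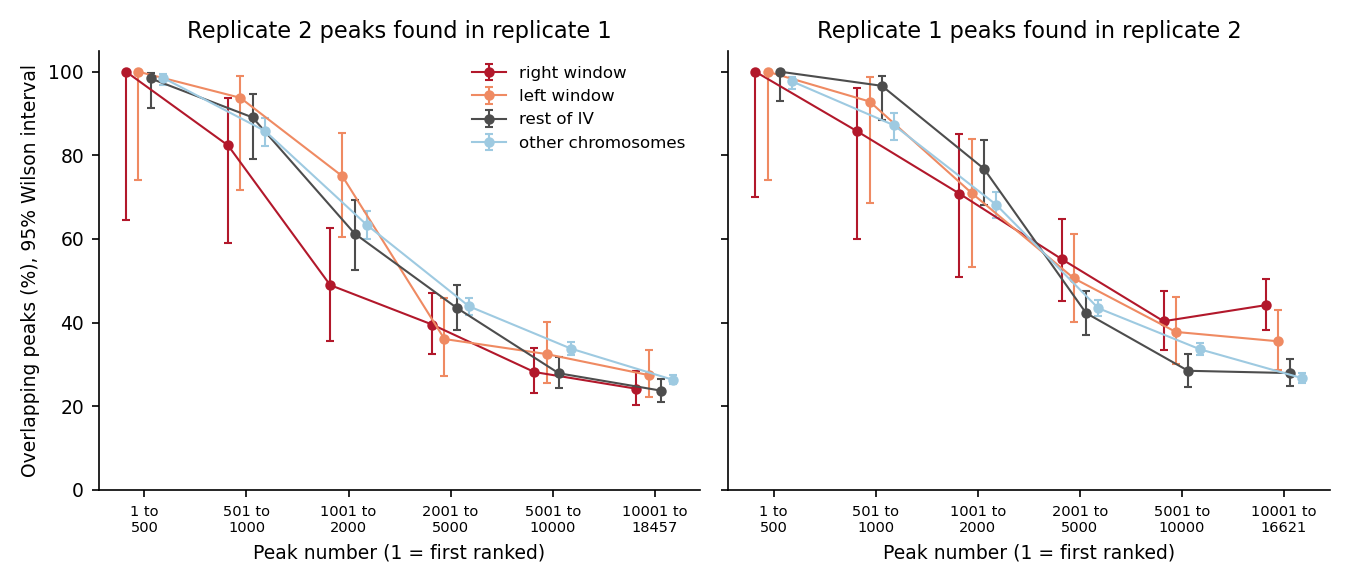
Share of replicate 2 peaks found in replicate 1 (left panel) and of replicate 1 peaks found in replicate 2 (right panel) by class of peak number, for the right and left windows, the rest of IV and the other chromosomes; bars are 95% Wilson intervals. The shares fall from the first to the last class everywhere except between the last 2 classes of replicate 1 in the right window (40.3% and 44.2%), and the right window ends at 24.2% in the left panel and at 44.2% in the right panel.

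Scores at shared sites were less closely related between the replicates in the right window. Scores in replicate 2 and replicate 1 had a Spearman rank correlation of 0.31 there, over 259 pairs of peaks that overlapped and were each other's nearest. The value was 0.51 over 185 pairs in the left window, 0.50 over 632 pairs in the rest of IV and 0.46 over 4909 pairs elsewhere. These values describe peaks that come from the same 2 libraries and carry no test. The pairs of the right window were also ranked lower, with median numbers of 6831 (replicate 2) and 7624 (replicate 1), against 6250 and 5566 elsewhere. Peak centres of a pair lay a median of 71 bp apart in the right window (quartiles 26.5 and 190 bp), 78 bp in the left window and 55.5 bp in the rest of IV, against 61 bp on the other chromosomes.

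Few right-window peaks of either replicate entered the combined list. Of replicate 2 peaks 2.86% (27 of 945, interval 1.97 to 4.13) overlapped a combined peak, and of replicate 1 peaks 4.71% (27 of 573, 3.26 to 6.77). On the other chromosomes the shares were 7.28% for replicate 2 (interval 6.88 to 7.71) and 7.49% for replicate 1 (7.07 to 7.94), so that each lay above the right-window interval of its replicate. In the left window they were 7.38% and 8.64%, and in the rest of IV 7.82% and 8.39%. The share was low in the rank class with the highest ratio of replicate 2 to replicate 1. Of replicate 2 peaks 1001 to 2000, 6.12% in the right window (3 of 49) were in the combined list, against 20.5% in the left window (9 of 44) and 20.9% elsewhere. Of the first 500 replicate 2 peaks, all 7 in the right window were in the combined list, against 97.4% on the other chromosomes.

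Seen from the combined list, almost every site was in both libraries. All 25 right-window peaks and all 33 left-window peaks overlapped a peak of each replicate, and so did 133 of the other 134. On the other chromosomes 917 of 927 (98.9%) did. The exception on chromosome IV, at 12558955 to 12559404 (combined number 962), overlapped number 492 of replicate 2 and no replicate 1 peak. By its name, the combined list was made from both libraries, so this describes its making and is no independent check. In the right window the combined peaks had the lower number in replicate 2 for 7 of 25 (28.0%, interval 14.3 to 47.6), against 46.3% elsewhere (43.1 to 49.6). In the left window this held for 16 of 33 and in the rest of IV for 71 of 133. By their medians, the right-window combined peaks were number 711 of replicate 2 and number 567 of replicate 1. Replicate 2 thus had more peaks in the right window, but the sites selected there ranked somewhat lower in it than in replicate 1, with intervals that overlap those of the other chromosomes.

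Some combined peaks ranked much higher in one library than in the other. At 14594121 to 14594570 (combined number 878) the replicate 2 number was 12194 and the replicate 1 number 567. At 16492169 to 16492618 (combined number 886) they were 9898 and 533. In the left window, 5753185 to 5754489 held a pair of combined peaks, of which the one starting at 5754040 ranked 9829th in replicate 2 and 366th in replicate 1. The opposite case in the right window was 15036929 to 15037378 (combined number 533), number 223 in replicate 2 and 2560 in replicate 1. A wider opposite case lay in the rest of IV, at 1239688 to 1240137 (combined number 861). It was number 278 in replicate 2 and 8549 in replicate 1. Of the combined peaks in both replicates, 6 of 25 in the right window and 5 of 33 in the left had a replicate 2 number beyond 2000. In replicate 1 such a number was held by 1 of 25 and 2 of 33. On the other chromosomes 116 of 917 had such a number in replicate 2 and 48 in replicate 1. In the rest of IV 14 of 133 did in replicate 2 and 11 in replicate 1.

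**Figure D5:**
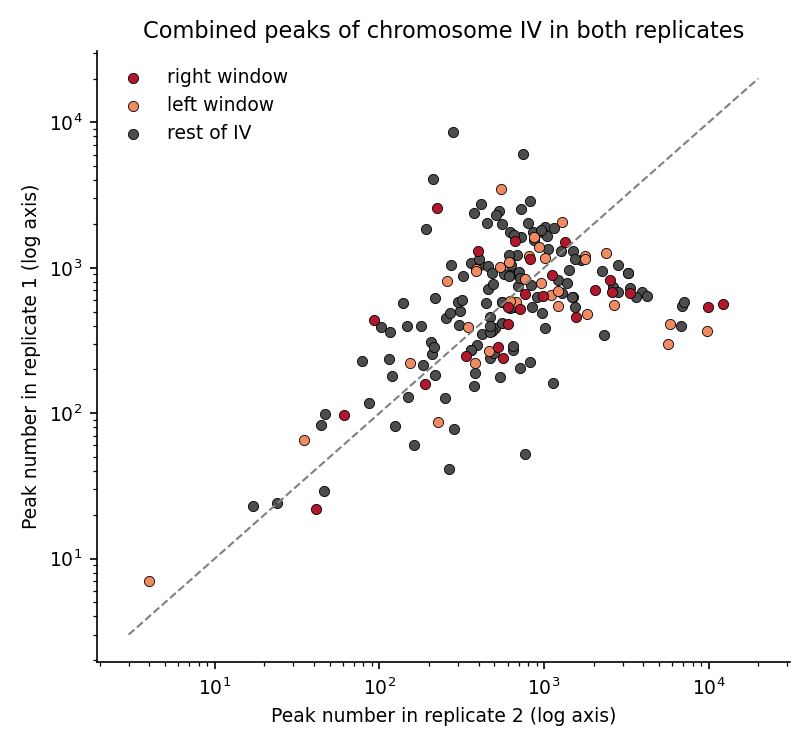
Peak number in replicate 2 (horizontal, log axis) and in replicate 1 (vertical, log axis) for the 191 combined peaks of chromosome IV found in both, taking the first-ranked peak where several overlapped; the dashed line marks equal numbers. Of the 25 right-window peaks 18 lie to the right of the line, with a lower rank in replicate 2, and the points farthest to the right have replicate 2 numbers of 9829 to 12194.

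Spacing followed density in the replicate lists. The median distance from a peak centre to the nearest other was 1.20 kb in replicate 2 and 2.09 kb in replicate 1 in the right window. It was 1.36 and 1.95 kb in the left window and 1.73 and 2.01 kb in the rest of IV, against 1.77 and 1.95 kb on the other chromosomes, with replicate 2 given first. In the right window 68.5% of replicate 2 peaks (interval 65.4 to 71.3) and 47.5% of replicate 1 peaks (43.4 to 51.6) had a neighbour within 2 kb. On the other chromosomes 54.5% and 51.1% did. Divided by the mean spacing of the region, the replicate 2 median was 0.306 in the right window and 0.319 on the other chromosomes. Peaks were therefore about as unevenly spread there as elsewhere for their number.

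Long runs of peaks, each within 2 kb of the next, were frequent in replicate 2. The right window held 16 runs of 6 or more replicate 2 peaks, or 4.32 per Mb, and no such run of replicate 1. The left window held 8 in replicate 2 (3.20 per Mb) and 4 in replicate 1 (1.6 per Mb), against 1.53 and 1.23 per Mb on the other chromosomes. The longest on chromosome IV had 12 replicate 2 peaks over 10.7 kb, from 14634527 to 14645183, and its first-ranked peak was number 3021. A run of 11 peaks from 14872232 to 14879911 followed, led by number 664. This second run includes a combined peak at 14872233 to 14872682 (combined number 969), number 1525 in replicate 1. Both runs lie in the window from 14.5 to 15 Mb that held the most replicate 2 peaks.

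Combined peaks were far apart in comparison. Their median distance to the nearest other was 34.2 kb in the right window, 28.7 kb in the left window and 28.3 kb in the rest of IV, against 22.3 kb on the other chromosomes. A neighbour within 2 kb was found for 4 of 25 right-window peaks, 8 of 33 left-window peaks (24.2%, interval 12.8 to 41.0) and 11 of 134 in the rest (8.21%, interval 4.65 to 14.1), against 10.9% elsewhere. Merging within 2 kb gave 12 groups of combined peaks on chromosome IV, of which 1 held 3 peaks, at 10935276 to 10937193. Its first-ranked peak was combined number 313, and its best numbers were 390 in replicate 2 and 272 in replicate 1. The right-window groups were 15471363 to 15472773 and 16491500 to 16492618, each a pair.

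Of the 10 longest stretches of chromosome IV without a combined peak, 4 lay inside the right window. They ran from 16656636 to 17087371 (431 kb), from 14071289 to 14464164 (393 kb), from 15037379 to 15398629 (361 kb) and from 15809963 to 16169713 (360 kb). The median distance between neighbouring combined peaks on the chromosome was 58.2 kb. Replicate 2 had 101, 96, 86 and 91 peaks in these stretches in the same order, and replicate 1 had 59, 61, 55 and 54. Each of the 4 thus held more replicate 2 peaks, at ratios of 1.56 to 1.71, against 1.65 over the whole right window. The other 6 of the 10 also held more replicate 2 peaks, and one of them, from 9718786 to 10085675 in the rest of IV, had 71 against 45, a ratio of 1.58. The longest stretch of all, from 12725008 to 13240564 (516 kb), lay to the left of the right window, and held 80 replicate 2 peaks and 75 replicate 1 peaks. The replicate lists are far longer than the combined list, so any stretch of this length holds many replicate calls, and their presence does not set these gaps apart.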

How the data were processed

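The authors' deposited lists give 1 score per peak, whose meaning is not named in the files, with start and end positions. Per the file headers, coordinates are WormBase WS220, and the source column names spp_via_IDR (SPP is a peak caller, and IDR, the irreproducible discovery rate, keeps peaks that replicates rank alike). No label or header records the aligner, filters or settings. The input libraries were not analysed here. Members, windows and tests were chosen with earlier results of these data known. Peaks were placed by centre. Chromosome lengths were the largest peak end in any list. Shares have 95% Wilson intervals, densities exact Poisson intervals, density ratios exact conditional intervals, and ratios of ratios log-normal intervals. Windows of 0.5 Mb were tested by two-sided exact binomial tests (Benjamini-Hochberg over 197, threshold 0.05). The tests were run on simulated independent counts, which cannot give their error rate where peaks lie in runs. Rank classes, runs of 6 or more, nearest pairs and gaps were added after the data were seen. Named peaks were the 5 first-ranked combined peaks of each region, combined peaks missing from a replicate, groups of 3 or more, and called or extreme windows; others were chosen after their values were seen. Sequences and genes under peaks were not used here, since no genome of this build was at hand. Python 3.11.15, NumPy 2.4.6, SciPy 1.17.1, pandas 2.3.3 and Matplotlib 3.10.9 were used.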

Additional observations from a re-analysis of the deposited data

How the results depend on the processing

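Of 111 alternatives to 32 results, 59 stayed within the interval of the main value or within 1.5 times a count. The combined density of the right window relative to the other chromosomes (0.603) was 0.558 to 0.680 under the alternatives within the combined list, but 0.925 to 1.42 in the replicate lists alone, where replicate 2 turned it above 1. That of the left window (1.18) turned to 0.675 when only peaks with the highest score were kept. It was 0.982 with the window edges moved in by 0.25 Mb and 1.25 with them moved out. The replicate 2 to replicate 1 ratio of the right window (1.53) was 1.07 for the first 1000 peaks, 1.78 for the first 5000, 1.08 for peaks with at least the lowest combined score, 1.18 after merging within 2 kb, and, in alternatives added after the data were seen, 1.98 for peaks of 1 library only and 1.04 for shared peaks. That of the left window (1.20) was 1.05 by score, 1.0 after merging and 1.04 for shared peaks. That of the rest of IV (1.09) was 1.17 for the first 1000 and for the first 2000 peaks and 1.26 by score. Merging joins more peaks where they are dense, and how far this accounts for the lower ratios was not tested. Overlap shares, given for the right window, the left window and the rest of IV, fell to 22.6%, 27.8% and 26.9% of replicate 2 peaks and 36.5%, 35.7% and 30.7% of replicate 1 peaks with a reciprocal overlap of 50%. With centres within 200 bp they were 21.7%, 27.6% and 26.4% of replicate 2 and 35.6%, 35.5% and 30.2% of replicate 1. By score, with both lists cut, they were 73.7%, 72.7% and 72.5% of replicate 2. For replicate 1 they were then 43.3% (right window), 44.4% (left window) and 52.7% (rest of IV). For the first 5000 peaks of each list they were 22.9% (right window) and 40.7% (rest of IV) of replicate 2. For replicate 1 they were 37.1% and 40.7%. The shares of peaks by score in the combined list were 84.2%, 77.3% and 87.2% of replicate 2 and 73.3%, 80.6% and 74.3% of replicate 1. Of the combined peaks in the rest of IV, 94.0% were in both replicates with a reciprocal overlap of 50%, and 99.3% to 100% with a replicate left out. Windows of IV with a higher replicate 2 share numbered 1, but 3 with 1 Mb windows, all in the right window, and 0 after merging. Merging also left 0 of 163 windows on the other chromosomes with a called share. With 1 Mb windows, 2 of 80 on the other chromosomes were also called higher, and 1 lower. Merging also left 0 windows called in either replicate list, against 7 higher and 1 lower in replicate 2 and 1 higher and 3 lower in replicate 1. With 1 Mb windows, 2 windows of IV were lower in replicate 2 and 3 higher in replicate 1. The shares of all 1 Mb windows called in these lists are not given here. The cause of these shifts was not tested. No paired analysis was possible because replicate numbers are shared between ChIP and input only, and inputs were not analysed here. Without read depths, absence from a list does not show that a site is unbound.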

Other observations

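The stretches at the same relative place on the other chromosomes, compared here after the values above were known, give a range for the right window. Combined peaks there numbered 4.07 per Mb on V (interval 2.41 to 6.43), 10.0 on I, 11.1 on II, 13.4 on III and 13.6 on X, so the right window, at 6.76 per Mb, was not the sparsest. The ratio of replicate 2 to replicate 1 peaks in these stretches was 1.05 on I, 1.07 on X, 1.19 on II, 1.24 on V and 1.29 on III, against 1.65 in the right window. In the mirrored stretches near the left ends it reached 1.43 on III and 1.40 on I, and was 1.24 on IV. For the left window, the stretches at its relative place had ratios of 0.964 on V to 1.18 on I, against 1.29 in the left window itself.

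Higher replicate 2 shares were also found elsewhere. The window of chromosome III from 1.5 to 2.0 Mb had a ratio of 2.07 and passed the exact binomial test (adjusted p = 0.035), and the window of X from 7.0 to 7.5 Mb was lower, with a ratio of 0.654 (adjusted p = 0.016, exact). Neither window was called after peaks within 2 kb were merged. The last 0.292 Mb of chromosome IV, beyond the right window, held 78 replicate 2 peaks, 52 replicate 1 peaks and 4 combined peaks, a ratio of 1.5.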
